A study of Homo sapiens with 4 samples.

Results

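The regions described here are those at which chromatin immunoprecipitation with sequencing (ChIP-seq) of HNF4A exceeded the IgG background strongly at both glucose levels. A region was a member where the log2 ratio of HNF4A over IgG was at or above 1.5, a 2.83-fold excess, at high glucose and again at low glucose. Of 5326 regions in the deposited tables, 745 met this rule, or 14.0%. The study held 4 libraries from HCCLM3, an established human hepatocellular carcinoma cell line, with 1 library in each group: HNF4A at high glucose, IgG at high glucose, HNF4A at low glucose and IgG at low glucose. No comparison below has a replicate, so no test across conditions was possible. The labels state that lines stably overexpressing a gene were made in HCCLM3 with a lentiviral vector carrying a CMV promoter. They do not name the gene, say whether a line was 1 clone, or give the glucose concentrations. The same high glucose DMEM with serum is described for all 4 libraries, including those labelled low glucose, and the IgG libraries carry the same immunoprecipitation text as the HNF4A ones.

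HNF4A is a nuclear receptor that binds DNA as a homodimer and keeps hepatocyte genes active, among them those of lipoprotein assembly, fatty acid handling and blood protein secretion. It recognises direct repeats of the nuclear receptor core sequence and a more specific element with the core CAAAGTCCA. AMPK, the energy-sensing kinase named in the series title, is activated when cellular fuel is low and restrains the mTORC1 growth pathway. An IgG library measures the DNA that is recovered without a specific antibody, so a ratio of HNF4A over IgG can be high through many HNF4A reads, through few IgG reads, or through both.

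Sequences of the regions themselves were not analysed here. The promoters of the genes listed closest to member regions were read instead, from RefSeq on GRCh38.p14, in windows running 250 bases before to 50 bases after each gene start. The gene names of 713 of the 745 regions were matched, and 500 genes had such a window. An exact HNF4 sequence (CAAAGTCCA, CAAAGTTCA or CAAAGGTCA, on either strand) was present in 13 of these 500 genes. CAAAGTCCA and CAAAGTTCA were set down as HNF4-specific, and CAAAGGTCA as the core of a direct repeat. All 13 are shown because they are the promoters in which an HNF4 sequence and a member region meet at the same gene. They were chosen after their values were seen. Each line gives 29 bases read 5′ to 3′ on the strand of the motif, with the 9 motif bases in capitals, after the promoter window that holds it on GRCh38.p14.
AGMAT (chr1:15585002-15585301, minus strand gene): cgagccggctCAAAGGTCAggggcgccct
ERICH4 (chr19:41442906-41443205, plus strand gene): aaaggtatccCAAAGTCCActcttcagag
C15orf41 (chr15:36594627-36594926, plus strand gene): ttattgcgcaCAAAGGTCAtctgtattag
HMGCS1 (chr5:43313132-43313431, minus strand gene): tcctcccgggCAAAGTCCAcgcctacgtc
STRA6 (chr15:74212210-74212509, minus strand gene): cacatgaagaCAAAGGTCAgtgctgctga
ST5 (chr11:8794795-8795094, minus strand gene): atttcaagggCAAAGTCCAcagttggcag
KIAA1683 (chr19:18274403-18274702, minus strand gene): agggcagggcCAAAGGTCAtggtggttgc
FTO-IT1 (chr16:54039143-54039442, plus strand gene): ccctcctcatCAAAGTTCAcaaaacatta
SPATS2L (chr2:200306012-200306311, plus strand gene): gctgagggagCAAAGTTCAttttctcggg
CLRN3 (chr10:127892892-127893191, minus strand gene): tactccagacCAAAGTTCAgctactgtta
ABLIM1 (chr10:114684954-114685253, minus strand gene): taaaaaggctCAAAGTCCAcggctcgtct
SLCO2B1 (chr11:75159582-75159881, plus strand gene): ttgtggagggCAAAGTCCAcagcctgtgc
WDR7 (chr18:56651447-56651746, plus strand gene): ggtcaggggtCAAAGGTCAcaaacccgct

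The motif began at position -40 from the gene start for AGMAT, an agmatinase, and at -48 for HMGCS1, the cytosolic HMG-CoA synthase of cholesterol synthesis. It began at -22 for STRA6, a receptor for retinol-binding protein, at -69 for SLCO2B1, an organic anion transporter of liver, and at -20 for ABLIM1, an actin-binding LIM protein. The remaining 8 genes had it between -202 and 14. CAAAGTCCA and CAAAGGTCA were each found in 5 genes and CAAAGTTCA in 3. The upstream promoters of AGMAT and HMGCS1 are shown in full, as examples picked after values were seen. They read 5′ to 3′ in the direction of the gene, and the capitals mark the motif, here on the opposite strand.
AGMAT (chr1:15585052-15585301, minus strand): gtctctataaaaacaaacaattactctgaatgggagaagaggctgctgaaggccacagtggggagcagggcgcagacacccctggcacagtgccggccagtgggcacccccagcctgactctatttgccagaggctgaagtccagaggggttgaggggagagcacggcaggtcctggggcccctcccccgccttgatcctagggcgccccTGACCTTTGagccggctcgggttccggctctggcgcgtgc
HMGCS1 (chr5:43313182-43313431, minus strand): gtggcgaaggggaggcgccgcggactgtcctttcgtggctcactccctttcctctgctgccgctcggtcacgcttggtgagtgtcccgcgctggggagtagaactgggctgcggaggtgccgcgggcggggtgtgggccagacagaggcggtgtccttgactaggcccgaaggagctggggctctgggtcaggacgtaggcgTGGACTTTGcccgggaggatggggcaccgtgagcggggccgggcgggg

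The member region listed closest to AGMAT held 51 HNF4A and 8 IgG reads at high glucose, and 25 HNF4A and 2 IgG reads at low glucose. Its log2 ratios were 2.53 and 3.62, which made it the highest of the 13 by the lower of its ratios. HMGCS1 was next to a region of greater depth, with 59 HNF4A reads and 14 IgG reads at high glucose and 36 HNF4A and 10 IgG reads at low glucose. The region of ERICH4 was the deepest of the set at 90 HNF4A and 15 IgG reads at high glucose, and 77 HNF4A and 17 IgG reads at low glucose. STRA6 held 46 HNF4A and 12 IgG reads at high glucose, against 18 HNF4A and 5 IgG reads at low glucose. HNF4A lay above IgG at both glucose levels in all 13, as the rule requires. Whether a region overlaps the promoter shown was not determined, because the regions are on hg19 and the promoters on GRCh38.p14.

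An exact HNF4 sequence was present in a promoter window of 2.60% of member genes (exact 95% interval 1.39 to 4.41). The share was 1.63% of 2635 genes next to other regions only, and 1.34% of 27305 RefSeq genes with windows of the same length. A gene counted if any of its windows held the sequence. Member genes had a mean of 1.56 windows, against 1.46 next to other regions and 1.29 over RefSeq, so the search was unequal. The share next to other regions lies inside the interval of the member genes. The looser CAAAGNNCA was present in 7.20%, 6.45% and 6.44% of the same 3 sets, and the core AGGTCA, which overlaps CAAAGGTCA, in 16.2%, 14.2% and 16.5%. The direct repeat of that core spaced by 1 base was absent from the windows of the 500 member genes and was found in 3 of the 2635 other genes. Among letters bound by other factors, the ETS sequence CCGGAAG stood at 12.4% next to members, 21.6% next to other regions and 12.2% over RefSeq. The SP1 sequence GGGCGGGG stood at 40.2%, 45.9% and 26.1%. FOXA (TGTTTAC) was found in 3.80%, 3.38% and 4.19% of the sets, and AP-1 (TGACTCA) in 6.40%, 5.73% and 6.05%.

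The sets also differed in base composition. Values were averaged over the windows of a gene. The median for member genes was 62.8% G and C with 22 CpG dinucleotides. It was 64.7% and 25 next to other regions and 58.3% and 14 over RefSeq. Genes whose windows averaged fewer than 10 CpG made up 23.2% of the member set (116 of 500), 12.1% of the other set (320 of 2635) and 42.6% of RefSeq. CpG-poor promoters are typical of genes restricted to a few tissues, and CpG-rich ones of genes used in most cells. Grouped by the best lower ratio of a gene's regions, 9.34% of genes had CpG-poor promoters where that ratio was below 0 and 7.75% between 0 and 0.5. The share was 13.5% between 0.5 and 1, 19.6% between 1 and 1.5, 24.3% between 1.5 and 2, and 21.5% at 2 or more. These groups are cut on the rule's own ratio, whose denominator is IgG, so nothing is read from their order. The part of base composition in the motif shares was not tested.

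The values that chose the members came out as follows, and they are a description. The log2 ratio of HNF4A over IgG in member regions had a median of 2.11 at high glucose (up to 5.78) and of 2.09 at low glucose (up to 5.18). Over all regions the medians were 0.79 and 0.94. At high glucose 1325 regions (24.9%) reached 1.5 and at low glucose 1355 (25.4%) did, so the 745 shared regions were 56.2% of the list at high glucose and 55.0% of the list at low glucose. A log2 ratio of at least 2 at both levels was reached by 269 regions, and of at least 3 by 30. The exact 95% counting interval, which covers counting error only, lay above 0 at both levels in 736 of the 745 members (98.8%, beside 41.1% of all regions). Its lower bound was at or above 1 at both levels in 180 members (24.2%, beside 3.42%) and at or above 1.5 in 25 (3.36%, beside 0.469%). The intervals are on the rule's own ratios, so nothing is read from these counts.

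**Figure D1:**
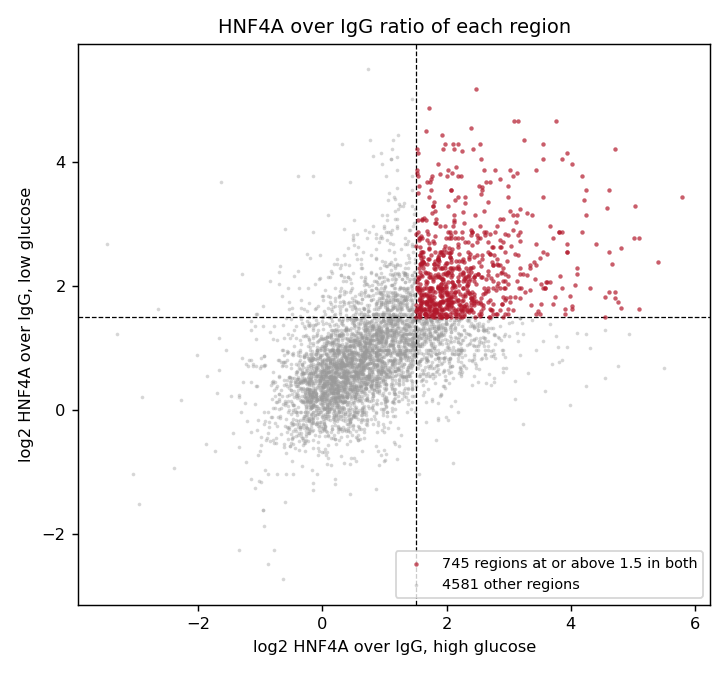
Log2 ratio of HNF4A over IgG at high glucose (x axis) and at low glucose (y axis), 1 point for each region, with the 745 regions at or above 1.5 in both marked apart from the others. The dashed lines stand at 1.5, and most member points lie near the corner, with a median of 2.11 on the x axis and 2.09 on the y axis.

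The reads behind the ratios are those the rule used, and their densities are a description. Per kilobase, members held a median of 50.9 HNF4A reads under high glucose and 33.6 under low glucose, while other regions held 45.3 and 33.1. For IgG the members held 10.2 reads per kilobase under high glucose and 7.53 under low glucose, against 27.3 and 18.3 in other regions. The medians of members and other regions lay closer together for HNF4A than for IgG. A rule on HNF4A over IgG selects for low IgG as well as for high HNF4A, so nothing is read from these medians. Of all reads in the regions, members took 9.41% for HNF4A and 3.08% for IgG at high glucose, and 8.30% for HNF4A and 2.85% for IgG at low glucose. When the regions were ordered by the IgG reads of both libraries per kilobase and cut into 5 equal groups, the members made up 56.8% of the lowest group, then 10.8%, 2.16%, 0.188% and 0% of the next ones. Ordered by HNF4A density instead, the shares ran 10.9%, 11.8%, 13%, 15.6% and 18.7% from the lowest group to the highest. These shares rest on the rule's own reads.

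**Figure D2:**
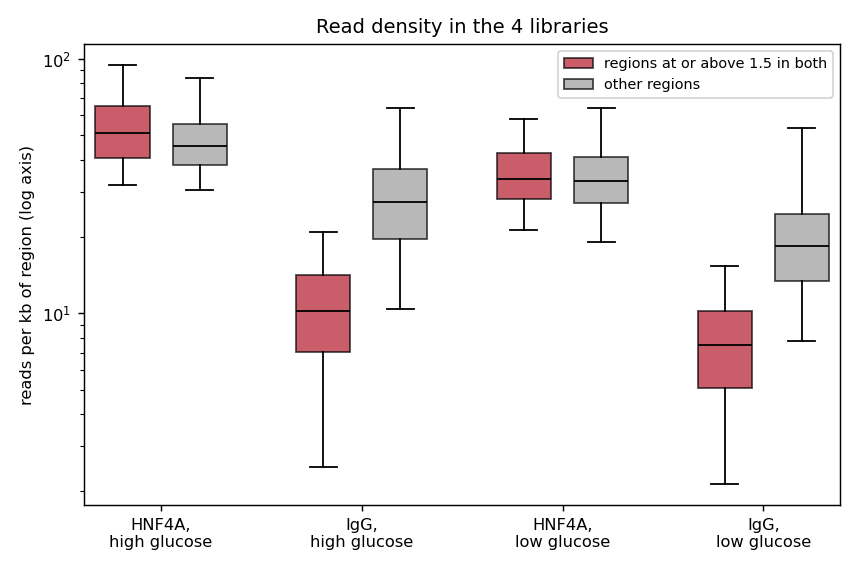
Reads per kilobase (log axis) in each of the 4 libraries for the 745 member regions and the 4581 other regions, with boxes over the quartiles and whiskers from the 5th to the 95th percentile. The members' boxes overlap those of other regions in both HNF4A libraries and lie lower in both IgG libraries, at medians of 10.2 and 7.53 reads per kilobase.

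Regions that passed at 1 glucose level only were defined by the same ratios, so their densities too are a description that the selection shapes. The 580 regions that passed at high glucose only had median IgG densities of 11.7 reads per kilobase under high glucose and 14.3 under low glucose. The 610 that passed at low glucose only had 21.9 and 9.43. Their HNF4A densities were 51.8 and 30.0 reads per kilobase for the high glucose class, and 44.4 and 37.1 for the low glucose class. The 3391 regions that passed at neither level had 44.6 and 33.0 HNF4A reads per kilobase, and 31.0 and 20.8 for IgG.

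Read numbers set the precision. Member regions held 12 to 240 HNF4A reads under high glucose (median 41) and 8 to 154 under low glucose (median 28). Their IgG reads ran from 1 to 53 under high glucose (median 8) and from 1 to 38 under low glucose (median 6). IgG was listed at 1 read in at least 1 of its libraries in 63 members (8.46%, beside 0.568% of other regions). It was listed at 1 read in both in 11 members (1.48%) and in 0 other regions. The rule selects for low IgG, so nothing is read from these shares. A listed 1 may stand for 0 or 1 read. At least 20 HNF4A reads in each HNF4A library were present in 595 members, and the regions named first below come from these.

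The region listed closest to STX4, a plasma membrane SNARE protein of vesicle fusion, had the highest lower ratio among the 595. It lies at chromosome 16, 31055314 to 31055883 (hg19), and held 30 HNF4A and 2 IgG reads at high glucose, and 26 HNF4A and 1 IgG reads at low glucose. Its log2 ratios were 3.76 (1.78 to 6.87) and 4.67 (2.07 to 10.03), so both HNF4A libraries lay above both IgG libraries but the size of the excess was loosely set. PPP2CB encodes a catalytic subunit of protein phosphatase 2A, and its region held 61 HNF4A reads and 1 IgG read at high glucose, and 44 HNF4A and 4 IgG reads at low glucose. Its log2 ratios were 5.78 (3.25 to 11.11) and 3.43 (1.98 to 5.37). PCNX followed with 41 HNF4A reads and 2 IgG reads at high glucose, and 32 HNF4A and 3 IgG reads at low glucose. In each of these regions the IgG side rested on 4 reads or fewer.

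Deeper regions gave narrower intervals. NDST1, an enzyme that modifies heparan sulfate chains, held 132 HNF4A and 5 IgG reads at high glucose, and 78 HNF4A and 8 IgG reads at low glucose, at chromosome 5, 149922113 to 149923252. LENG8 held 139 HNF4A and 15 IgG reads at high glucose, and 90 HNF4A and 10 IgG reads at low glucose, at chromosome 19, 54955555 to 54956545. The log2 ratios of LENG8 were 3.07 (2.29 to 3.94) and 3.14 (2.20 to 4.25), nearly the same at both levels. PAOX, a polyamine oxidase, stood at 2.99 (1.99 to 4.17) with 79 HNF4A reads and 9 IgG reads at high glucose, and at 2.83 (1.76 to 4.11) with 58 HNF4A and 8 IgG reads at low glucose. KLF6, a zinc finger transcription factor, held 49 HNF4A and 5 IgG reads at high glucose, and 29 HNF4A and 4 IgG reads at low glucose. HSD17B11, a lipid droplet dehydrogenase, was not among the deeper regions. It held 21 HNF4A reads in each HNF4A library, with 2 IgG reads under high glucose and 1 under low glucose. Its intervals were wide, with log2 ratios of 3.25 (1.21 to 6.38) and 4.37 (1.73 to 9.74).

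Over the 24 highest regions by this order, 1 per gene, the lowest HNF4A density was 29.8 reads per kilobase under high glucose and 26.9 under low glucose. The highest IgG density was 15.1 under high glucose and 10.1 under low glucose, so the HNF4A and IgG ranges did not overlap. The rule asks for at least a 2.83-fold excess in each region, so nothing is read from that separation. Beside the genes described, the 24 included DUSP10, C3orf52, KCNK5 (a background potassium channel), HTRA3 (a secreted serine protease), GEMIN6 (of the SMN complex), TRIM2 (an E3 ubiquitin ligase), FAM110B, OCIAD2, ATL2 (an endoplasmic reticulum GTPase), SKIL, SREBF1, FIGN, PDE1A (a cyclic nucleotide phosphodiesterase), GNAZ (a G protein alpha subunit), PGPEP1 and CALB2 (calretinin, a calcium-binding protein).

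**Figure D3:**
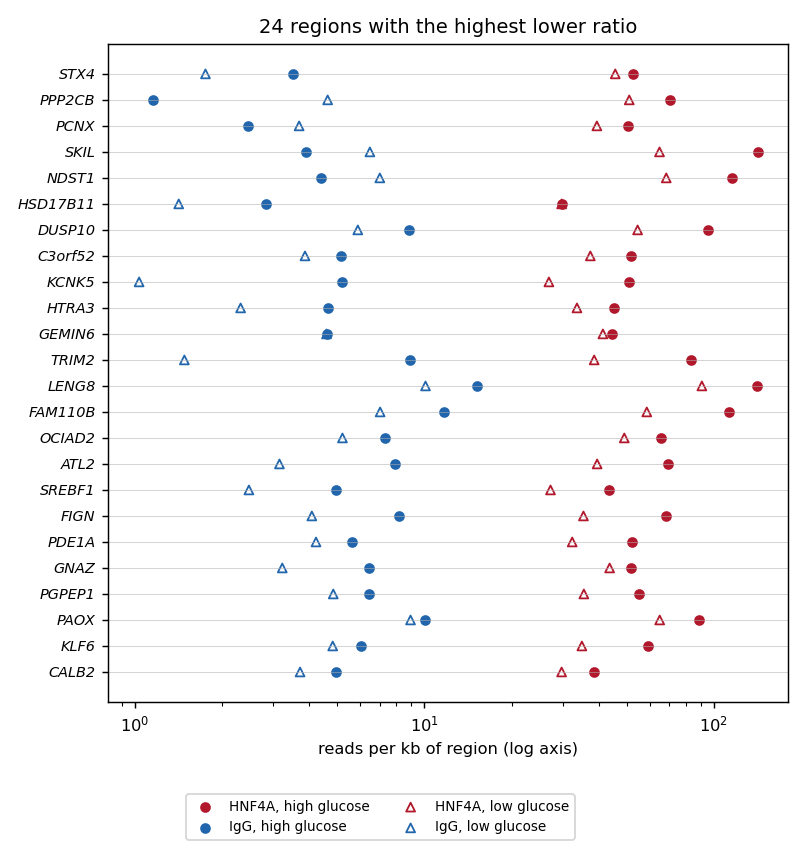
Reads per kilobase (log axis) in the 4 libraries for the 24 named regions, 1 row for each gene. HNF4A points run from 26.9 reads per kilobase upward and IgG points reach at most 15.1.

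Without a minimum of reads, the highest lower ratio was at JMY, an actin nucleator and p53 cofactor. Its region held 29 HNF4A reads and 1 IgG read at high glucose, and 19 HNF4A reads and 1 IgG read at low glucose, for log2 ratios of 4.71 (2.12 to 10.06) and 4.22 (1.57 to 9.60). NRIP1, a corepressor of nuclear receptors, came next with 18 HNF4A reads at high glucose, 16 at low glucose and 1 IgG read in each IgG library. SRD5A2, the steroid 5-alpha reductase, and GAS6, a secreted ligand of TAM receptor kinases, were also listed at 1 IgG read in each IgG library. These ratios have wide intervals, as JMY shows.

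The members with the most HNF4A reads were longer regions. MYO15B (chromosome 17, 73605776 to 73607491) held 231 HNF4A and 35 IgG reads at high glucose, and 154 HNF4A and 34 IgG reads at low glucose. RPRD2, a protein that binds the tail of RNA polymerase II, held 240 HNF4A and 53 IgG reads at high glucose, and 120 HNF4A and 38 IgG reads at low glucose. SULT2B1, a sulfotransferase of cholesterol and steroids, held 169 HNF4A and 30 IgG reads at high glucose, and 120 HNF4A and 18 IgG reads at low glucose. BCL9L, a coactivator of beta-catenin, held 168 HNF4A and 40 IgG reads at high glucose, and 116 HNF4A and 29 IgG reads at low glucose. Their log2 ratios lay between 1.63 and 2.71, below those of the 24 highest regions, and their intervals were narrow: 2.06 to 3.13 and 1.61 to 2.73 for MYO15B. ACY1, an aminoacylase, and PRSS48, a serine protease, completed the 6 with the most HNF4A reads.

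Gene lists for liver and tumour pathways held 465 genes, of which 148 had any region and 35 had a member region. These lists covered 217 regions, of which 37 were members, or 17.1%, beside 14.0% over all regions. The number of member regions in a list is small, and a list's share is a description.

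Among transcriptional regulators, CREB3L3 was the only member gene of the liver transcription factor list, with 1 of 8 regions (12.5%, beside 14.0% of all regions). It encodes a liver transcription factor of lipid and fasting responses, and its region held 49 HNF4A and 11 IgG reads at high glucose, and 21 HNF4A and 6 IgG reads at low glucose. In the list of metabolic nuclear receptors and coregulators, 2 of 14 regions were members, at PPARG and NRIP1. PPARG, the nuclear receptor of fat storage, held 61 HNF4A and 14 IgG reads at high glucose, and 50 HNF4A and 10 IgG reads at low glucose, with log2 ratios of 1.98 (1.12 to 2.93) and 2.30 (1.30 to 3.44). HNF4A's own gene was not among the members. Its highest region held 43 HNF4A and 25 IgG reads at high glucose, and 35 HNF4A and 17 IgG reads at low glucose, for log2 ratios of 0.64 (-0.11 to 1.41) and 1.02 (0.14 to 1.94).

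Lipid metabolism held 9 member regions in 3 lists. Fatty acid uptake and oxidation had 3 of 9 regions (33.3%, beside 14.0% of all regions), at ACSL5, CPT1A and ACADM. ACSL5, which activates long-chain fatty acids, held 89 HNF4A and 15 IgG reads at high glucose, and 57 HNF4A and 3 IgG reads at low glucose. CPT1A, which admits fatty acids to mitochondria, held 44 HNF4A and 9 IgG reads at high glucose, and 31 HNF4A and 2 IgG reads at low glucose, at chromosome 11, 68624484 to 68625523. Its log2 ratios were 2.14 (1.09 to 3.36) and 3.93 (1.95 to 7.04). ACADM, a dehydrogenase of medium-chain fatty acids, held 23 HNF4A and 5 IgG reads at high glucose, and 15 HNF4A and 2 IgG reads at low glucose. All 3 had a higher ratio at low glucose, where the IgG side rested on 2 or 3 reads, and the intervals of the 2 levels overlapped in each gene.

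Lipogenesis and triglyceride storage had 3 of 10 regions (30.0%, beside 14.0% of all regions), at SREBF1, MLXIPL and GPAM. SREBF1, the sterol-regulated activator of fatty acid synthesis, held 35 HNF4A and 4 IgG reads at high glucose, and 22 HNF4A and 2 IgG reads at low glucose, with log2 ratios of 2.98 (lower bound 1.5, upper bound 4.94) and 3.43 (1.41 to 6.57). MLXIPL encodes ChREBP, the carbohydrate-responsive activator of the same genes. Its region (chromosome 7, 73026992 to 73027932) held 98 HNF4A and 21 IgG reads at high glucose, and 52 HNF4A and 11 IgG reads at low glucose. Its log2 ratios of 2.08 (1.39 to 2.83) and 2.21 (1.26 to 3.30) were close at the 2 levels. GPAM, the first enzyme of glycerolipid synthesis, held 19 HNF4A reads in each HNF4A library, with 6 IgG reads under high glucose and 1 under low glucose.

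Lipoprotein and cholesterol genes had 3 of 18 regions (16.7%, beside 14.0% of all regions), at HMGCS1, APOA1 and LIPC. APOA1, the main protein of high-density lipoprotein, held 31 HNF4A and 7 IgG reads at high glucose, and 28 HNF4A and 2 IgG reads at low glucose, at chromosome 11, 116709283 to 116709961. LIPC, hepatic lipase, held 31 HNF4A and 4 IgG reads at high glucose, and 15 HNF4A and 5 IgG reads at low glucose. For HMGCS1, whose promoter is printed above, the log2 ratios were 1.93 (1.07 to 2.88) and 1.82 (0.78 to 3.00). Secreted hepatocyte proteins had 3 of 11 regions (27.3%, beside the same 14.0%), at AGT, CP and C5. AGT, angiotensinogen, held 49 HNF4A and 12 IgG reads at high glucose, and 23 HNF4A and 7 IgG reads at low glucose. CP, ceruloplasmin, held 29 HNF4A and 6 IgG reads at high glucose, and 32 HNF4A and 3 IgG reads at low glucose. C5, a complement component, held 25 HNF4A and 5 IgG reads at high glucose, and 20 HNF4A and 1 IgG reads at low glucose.

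Glucose uptake and glycolysis had 3 of 12 regions (25%, beside 14.0% of all regions), in 2 genes. SLC2A1, the glucose transporter GLUT1, had 2 regions on chromosome 1 and both were members. The upper, at 43464819 to 43465482, held 26 HNF4A and 2 IgG reads at high glucose, and 17 HNF4A and 1 IgG reads at low glucose. The other, at 43445602 to 43446524, held 43 HNF4A and 8 IgG reads at high glucose, and 26 HNF4A and 8 IgG reads at low glucose. PFKP, the platelet phosphofructokinase, held 34 HNF4A and 7 IgG reads at high glucose, and 25 HNF4A and 8 IgG reads at low glucose. None of the 4 regions of gluconeogenesis, glycogen and amino acid breakdown genes was a member, and none of the 9 regions of bile acid and drug metabolism genes. The median ratios of the bile acid and drug list were 1.48 under high glucose and 1.40 under low glucose, just under the threshold and above the 0.79 and 0.94 of all regions.

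The AMPK and mTOR list had 2 member regions of 28 (7.14%, beside 14.0% of all regions), at RPTOR and EIF4EBP1. RPTOR, the mTORC1 scaffold that AMPK phosphorylates, held 78 HNF4A and 12 IgG reads at high glucose, and 57 HNF4A and 5 IgG reads at low glucose. Other regions closest to RPTOR were not members, with lower ratios of 0.92, 0.21 and 0.06. EIF4EBP1, the translation repressor that mTORC1 inactivates, held 40 HNF4A and 7 IgG reads at high glucose, and 22 HNF4A and 5 IgG reads at low glucose. The list's median ratios of 0.63 and 0.83 lay below those of all regions. Neither of the AMPK-related kinases SIK2 and MARK2 had a member region. SIK2 reached 0.91 (0.31 to 1.54) at high glucose and -0.88 (-1.72 to -0.08) at low glucose, and MARK2 reached 0.77 (0.09 to 1.49) and 1.78 (0.90 to 2.75). TRIB1, a pseudokinase known from blood lipid loci, missed the rule narrowly, at 1.44 (0.57 to 2.39) and 2.18 (1.06 to 3.50). MET, the hepatocyte growth factor receptor, stood at 0.18 and 0.33.

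The RAS and MAPK feedback list had 6 member regions of 24, or 25%, beside 14.0% of all regions. DUSP10, a phosphatase of p38 and JNK kinases, held 65 HNF4A and 6 IgG reads at high glucose, and 37 HNF4A and 4 IgG reads at low glucose, for log2 ratios of 3.29 (2.09 to 4.79) and 3.18 (1.71 to 5.13). DUSP6, which dephosphorylates ERK, held 112 HNF4A and 10 IgG reads at high glucose, and 51 HNF4A and 13 IgG reads at low glucose. SPRED2, an inhibitor of RAF activation, held 69 HNF4A and 13 IgG reads at high glucose, and 52 HNF4A and 11 IgG reads at low glucose. RRAS2, a RAS-related GTPase, held 41 HNF4A and 5 IgG reads at high glucose, and 30 HNF4A and 9 IgG reads at low glucose. DUSP6, SPRED2 and RRAS2 also had regions that were not members, with lower ratios of at most 1.18, 1.07 and 1.12. The remaining member regions of the list lay nearest to DUSP5, another ERK phosphatase, and ETV4, an ETS factor induced by ERK. These were named after their values were seen. Of the 6, DUSP5 had the highest ratio at high glucose, 5.10, and the lowest at low glucose, 1.64, with 38 HNF4A reads and 1 IgG read at high glucose and 19 HNF4A and 6 IgG reads at low glucose.

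Genes of TGF-beta signalling and the mesenchymal switch had 5 member regions of 19 (26.3%, beside 14.0% of all regions), in 4 genes. SKIL, a repressor of SMAD factors, held 109 HNF4A and 3 IgG reads at high glucose, and 50 HNF4A and 5 IgG reads at low glucose. Another region closest to SKIL was not a member. It held 142 HNF4A and 73 IgG reads at high glucose, and 98 HNF4A and 41 IgG reads at low glucose. SMURF2, a ubiquitin ligase for SMADs and their receptors, had 2 member regions of 3. The first, on chromosome 17 at 62675805 to 62676529, held 53 HNF4A and 7 IgG reads at high glucose, and 30 HNF4A and 4 IgG reads at low glucose. The second, at 62700153 to 62701174, held 52 HNF4A and 6 IgG reads at high glucose, and 27 HNF4A and 5 IgG reads at low glucose. The 2 member regions of SMURF2 were alike in all 4 libraries. Its other region held 45 HNF4A and 39 IgG reads at high glucose, and 28 HNF4A and 18 IgG reads at low glucose. SNAI2, a repressor of epithelial genes, held 79 HNF4A and 18 IgG reads at high glucose, and 53 HNF4A and 13 IgG reads at low glucose. LTBP1, which stores latent TGF-beta in the matrix, held 30 HNF4A and 9 IgG reads at high glucose, and 24 HNF4A and 4 IgG reads at low glucose.

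The Wnt list had 4 member regions of 26, or 15.4%, beside 14.0% of all regions. LRP5, a Wnt coreceptor, held 51 HNF4A and 6 IgG reads at high glucose, and 32 HNF4A and 8 IgG reads at low glucose. CTNNB1, beta-catenin, held 56 HNF4A and 17 IgG reads at high glucose, and 32 HNF4A and 9 IgG reads at low glucose. TCF7, a DNA-binding partner of beta-catenin, held 35 HNF4A and 9 IgG reads at high glucose, and 27 HNF4A and 5 IgG reads at low glucose. AXIN2, a feedback inhibitor, held 42 HNF4A and 12 IgG reads at high glucose, and 34 HNF4A and 4 IgG reads at low glucose. LRP5, CTNNB1 and AXIN2 also had regions that were not members, with lower ratios of at most 1.22, 1.05 and 0.83. The epithelial junction and polarity list had 2 of 23, or 8.70%, at ITGA6, a laminin-binding integrin, and PARD6B, a polarity scaffold. PARD6B held 103 HNF4A and 21 IgG reads at high glucose, and 77 HNF4A and 25 IgG reads at low glucose. The list of genes of neurons, muscle and blood had 4 regions and no member, with median ratios of 0.45 and 0.75.

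The 745 regions were listed closest to 713 of the 4323 genes in the tables, or 16.5%. A pair of member regions fell to 30 genes, and ERGIC1 alone had 3. ERGIC1, a protein of the compartment between endoplasmic reticulum and Golgi, had all 3 of its regions among the members, within 52710 bp of chromosome 5 (172234081 to 172286790). They held 28, 41 and 121 HNF4A reads at high glucose against 6, 7 and 31 IgG reads, and 27, 32 and 61 HNF4A reads at low glucose against 6, 9 and 21 IgG reads. The longest of the 3 had the most reads and the lowest ratios, 1.82 and 1.51. Genes with 2 member regions included INSR, the insulin receptor, RUNX1 and FOXP1, both transcription factors, GADD45B and GADD45G, both stress-induced, IGFBP3, an insulin-like growth factor binding protein, and SERPINE2, a protease inhibitor. These were picked from the 30 after their values were seen. INSR held 41 HNF4A and 9 IgG reads at high glucose, and 25 HNF4A and 4 IgG reads at low glucose, in its region at chromosome 19, 7199853 to 7200588. In its other region, at 7293115 to 7294145, it held 52 HNF4A and 15 IgG reads at high glucose, and 31 HNF4A and 10 IgG reads at low glucose. The RUNX1 regions span 306396 bp of chromosome 21 from end to end, and each had 2 or 3 IgG reads in each IgG library. Among regions whose closest gene was matched to RefSeq, that gene was protein-coding for 84.3% of members and 85.9% of other regions. It was a long noncoding RNA gene for 9.96% and 7.05%.

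Member regions were shorter and lay farther from other regions. Their median length was 831 bp (321 to 2486), against 1088 bp for other regions, and 1.07% of members against 12% of other regions were 2000 bp or longer. Regions under 1000 bp made up 75.2% of members and 43.1% of others. The nearest other region lay a median of 112310 bp away for members and 52681 bp for others. No other region lay within 1000000 bp for 8.32% of members and 3.21% of other regions. Among the members, longer regions had lower ratios: across the 745, the lower ratio and length were correlated at -0.28 (Pearson) and -0.29 (Spearman). That is a description over regions that share the same 4 libraries. Length was not used by the rule but moves with the number of reads in a region. Spacing was not used by the rule, but member share and number of regions were correlated at -0.65 (Pearson) and -0.73 (Spearman) across 22 chromosomes. Neither shortness nor distance is therefore read as a trait of the members.

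The share of regions that were members varied by chromosome, as did the background. Among the 22 chromosomes with at least 20 regions, it reached 38.3% on chromosome 6 (49 of 128), 33.3% on chromosome 14 (19 of 57) and 29.9% on chromosome 22 (20 of 67). It was 5.74% on chromosome 20 (12 of 209), 7.63% on chromosome 7 (38 of 498) and 7.86% on chromosome 12 (39 of 496). Chromosome 13 had 3 regions, and all 3 were members. The median IgG reads of both libraries together over all regions of a chromosome, scaled and per kilobase, were 23.0 on chromosomes 6 and 14, against 51.1 on chromosome 20 and 49.5 on chromosome 12. Across the same 22 chromosomes, the member share and the IgG density were correlated at -0.92 (Pearson) and -0.94 (Spearman). The same correlations were -0.77 and -0.85 with the HNF4A density and -0.65 and -0.73 with the number of regions. HNF4A density ranged less widely between chromosomes, at 64.4 to 83.9 reads per kilobase, than IgG density, at 23.0 to 51.2. IgG reads are the denominator of the rule's ratio, so a negative relation of member share to IgG density is partly built in. HNF4A reads are its numerator, for which the rule alone would build in a positive relation. The correlations with HNF4A density were negative, and the source of that direction was not tested. The points also share libraries, and the correlations are a description.

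**Figure D4:**
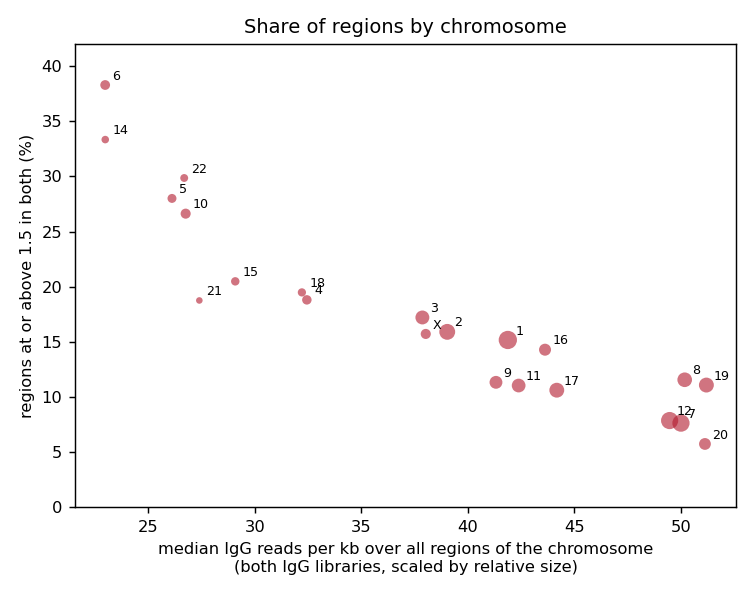
Median IgG reads of both libraries per kilobase over all regions of a chromosome (x axis) and the share of its regions that were members in percent (y axis), 1 point for each of 22 chromosomes. Chromosomes 6 and 14 stand at the upper left with 38.3% and 33.3%, and chromosomes 7, 12 and 20 at the lower right with 5.74% to 7.86%.

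The comparison of high against low glucose was not used by the rule, but it shares all its libraries with it. In member regions the log2 ratio of HNF4A at high over low glucose had a median of 0.45, against 0.34 in other regions and 0.36 over all. HNF4A was higher at high glucose in 654 members, or 87.8%, beside 81.8% of all regions. At least a 2-fold excess at high glucose was seen in 71 members (9.53%, beside 6.78% of all regions) and at least a 2-fold excess at low glucose in 0 (beside 0.713%). The shift was general, and a scaling that set the median of all regions to 0 would leave the members at 0.09. The IgG libraries moved as well. The log2 ratio of IgG at high over low glucose had a median of 0.42 in members and 0.51 in other regions, and IgG was higher at high glucose in 503 members, or 67.5%, beside 77.9% of all regions.

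Over the summed reads of members, the high over low glucose log2 ratio was 0.49 (0.47 to 0.51) for HNF4A and 0.43 (0.38 to 0.48) for IgG. For other regions the sums gave 0.29 and 0.31. The ratio of HNF4A over IgG was therefore nearly the same at the 2 levels when summed over members, 2.15 (2.12 to 2.19) at high glucose and 2.09 (2.05 to 2.13) at low glucose. By region, the log2 ratio over IgG was higher at high glucose in 397 members, or 53.3%, beside 41.7% of all regions. It differed by at least 1 toward high glucose in 87 members (11.7%, beside 8.49%) and by at least 1 toward low glucose in 78 (10.5%, beside 11.9%). The rule cuts both ratios at 1.5 and so limits this difference.

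**Figure D5:**
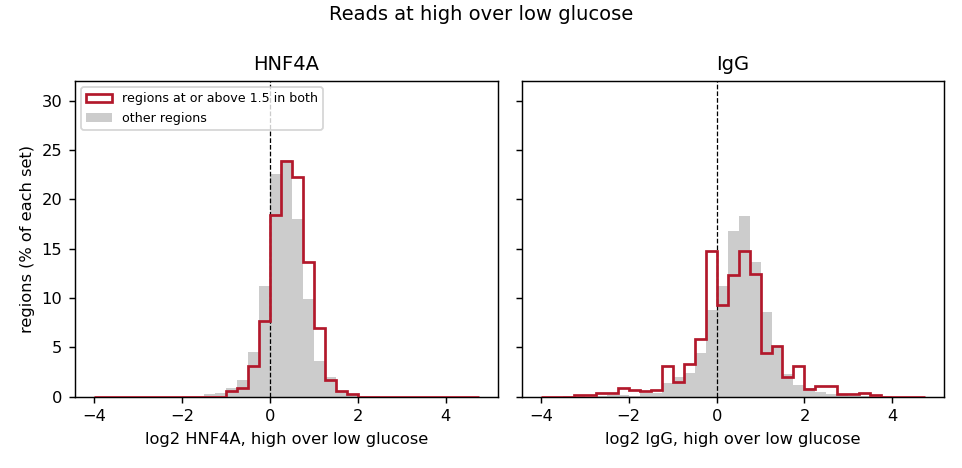
Distribution of the log2 ratio of reads at high over low glucose, for HNF4A (left) and IgG (right), in percent of each set of regions, with the 745 members as a line and other regions filled. The HNF4A distributions have medians of 0.45 and 0.34, and the IgG distribution of members, with a median of 0.42, is wider than that of other regions.

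Individual members departed from this shift in both directions. ABCC11, an ATP-dependent exporter of organic anions, held 97 HNF4A and 16 IgG reads at high glucose, and 26 HNF4A and 9 IgG reads at low glucose. Its HNF4A log2 ratio of high over low glucose was 1.76 (1.13 to 2.45), the highest among members with at least 20 HNF4A reads in each HNF4A library. NANS, the sialic acid synthase, stood at 1.61 (0.91 to 2.37) for HNF4A, and its IgG ratio was 2.19 (0.76 to 3.94), with overlapping intervals. MOCOS, a molybdenum cofactor sulfurase, held 81 HNF4A and 6 IgG reads at high glucose, and 30 HNF4A and 7 IgG reads at low glucose. Its HNF4A ratio was 1.30 (0.68 to 1.95) and its IgG ratio -0.24 (-2.09 to 1.56), and these intervals overlap. PLXNA2, a semaphorin receptor, and KLHL25, a ubiquitin ligase adaptor, stood at 1.30 and 1.29. At the other end, NME6, a nucleoside diphosphate kinase family member, held 25 HNF4A and 7 IgG reads at high glucose, and 39 HNF4A and 3 IgG reads at low glucose, an HNF4A ratio of -0.78 (-1.56 to -0.02). It was the only member whose interval lay below 0 (0.134%, beside 0.826% of all regions). The intervals of 214 members lay above 0 (28.7%, beside 25.8% of all regions), a share near that of all regions. SIKE1, PPP3CC, HCAR3 and LOC100505918 ranged from -0.65 to -0.46, with intervals that included 0.

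The authors' deposited tables carry a p-value and a false discovery rate (FDR) for each region. In the authors' deposited table at high glucose, 163 members (21.9%) had an unadjusted p under 0.05 above IgG, beside 4.96% of all regions. In the authors' deposited table at low glucose, 90 members (12.1%) did, beside 3.04%. Both were met by 39 of the members (5.23%, beside 0.807% of all regions), among them SKIL, NDST1, DUSP10, LENG8, ACSL5, RPTOR, SULT2B1 and MYO15B. These contrasts are the rule's own, so nothing is read from those counts. In the authors' deposited table of HNF4A at high over low glucose, 40 members (5.37%) had a p under 0.05 toward high glucose, beside 4.39% of all regions, and 0 toward low glucose, beside 0.225%. No member had an FDR under 0.05 in any of the authors' deposited tables, and their lowest FDR were 0.173, 0.820 and 0.914.

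At the edge of the rule, members and other regions were alike. Just inside, SULT1C2 held 167 HNF4A and 36 IgG reads at high glucose, and 75 HNF4A and 26 IgG reads at low glucose, with a lower ratio of 1.5. LINC01134, HIVEP1 and LOC102467147 lay at the same value. Just outside, NEK2 held 98 HNF4A and 27 IgG reads at high glucose, and 72 HNF4A and 25 IgG reads at low glucose, with a lower ratio that also rounds to 1.5. MIR548O2, SLC25A23 and IMMP2L were the next regions outside, each with 25 HNF4A reads and 8 IgG reads at high glucose.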

How the data were processed

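ChIP-seq was measured in 4 libraries, 1 per group. The submitters' processing notes name hg19 as the build and list HOMER, DiffBind, MACS, Bowtie 1.1.2 and bcl2fastq. Settings, and how regions were chosen, are not stated there. The authors deposited 3 tables over the same 5326 regions. Per the file headers, each region has log2 levels, a log2 fold, a p-value, an FDR and a closest gene. Adjusting the deposited p-values over all regions by Benjamini-Hochberg returns the authors' FDR.

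Reads were recovered from the deposited log2 levels: without the log, 100% of values were whole multiples, within 0.01, of 1 step per library. Relative library sizes were 1.10 (HNF4A, high glucose), 0.993 (IgG, high glucose), 1 (HNF4A, low glucose) and 0.982 (IgG, low glucose). Total depth is unknown. The regions hold 402237, 249744, 295460 and 198683 reads in the same order. Ratios are of scaled reads, and reads per kilobase of single libraries are unscaled. Exact 95% intervals are Clopper-Pearson intervals on the reads of 2 libraries. PCR reads without molecular identifiers are not independent molecules, so intervals cover counting error only. The interval step was tested on simulated data. Starts are printed counted from 1.

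The members, the gene lists and the named-gene rule were chosen with earlier results of these data known. Named genes were the 24 highest by lower ratio with at least 20 HNF4A reads in each HNF4A library, up to 4 per list by HNF4A level, genes with at least 3 member regions, 4 on each side of the threshold, 5 at each end of the glucose ratio, the 6 with the most HNF4A reads, and HNF4A, TRIB1, SIK2, MARK2 and MET. The rule for printed sequences, which asked for an HNF4 motif among the highest regions, returned none. Promoters were matched by symbol to RefSeq on GRCh38.p14, and the CpG and base composition values were added after seeing the data. Genes are named as closest by the authors' tables, with no distance; 3 members have different closest genes between tables. Python 3.11.15, NumPy 2.4.6, pandas 2.3.3, SciPy 1.17.1 and Matplotlib 3.10.9 were used. Alternatives were other thresholds, 1 added read, minimum reads, centred ratios, interval bounds and motif settings.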

Additional observations from a re-analysis of the deposited data

How the results depend on the processing

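The number of members depended on the rule. Against 745 regions at a log2 threshold of 1.5, a threshold of 1 gave 1670 and a threshold of 2 gave 269. Centring each ratio on its median over all regions gave 116, and asking for a lower counting bound of at least 1 at both levels gave 182, of which 180 were among the 745. At least 5 IgG reads in each IgG library, chosen after seeing the data, gave 462. Adding 1 read to both sides gave 622, and at least 20 HNF4A reads in each HNF4A library gave 595, both within 1.5 times the count. The median HNF4A ratio of high over low glucose, 0.45, was 0.094 when centred on the median of all regions and 0.40 at a threshold of 2. The median IgG ratio of high over low glucose, 0.42, was -0.085 when centred, so its direction depends on the scaling. The share of member genes with an HNF4 sequence in the promoter, 2.60%, was 7.20% with CAAAGNNCA, 1.57% at a threshold of 2 and 1.60% with the first listed start of each gene, the last chosen after seeing the data. The median length of 831 bp was 776 bp at a threshold of 2. The other thresholds, bounds and minimum reads keep more or fewer regions, centring moves the zero point, CAAAGNNCA is a looser motif on the same 500 genes, and the first listed start searches fewer windows.

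No paired analysis was possible because each group has 1 library, and no library was left out for the same reason. The share of member regions near a gene start was not run, since no annotation of the build was used. IgG was listed at 1 read in at least 1 of its libraries in 63 members (8.46%, beside 0.568% of other regions), and the intervals of these members are wide. The interval of the HNF4A ratio of high over low glucose lay above 0 in 214 members (28.7%, beside 25.8% of all regions). It lay below 0 in 1 (0.134%, beside 0.826%). For most members, as for most regions, the interval therefore included 0. The intervals cover counting error only and are not centred on the median of all regions, 0.36. With 1 library per group, an effect of glucose could not be told apart from a difference between libraries, at any depth.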
